A study of Drosophila melanogaster with 8 samples.

Results

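In heads of the Drosophila melanogaster mutant vriΔ679, RNA levels in the early night (ZT14) were compared with those in the morning (ZT2). The comparison rests on 4 of the 8 libraries of the study, taken by their titles: 2 labelled vriΔ679 ZT14 and 2 labelled vriΔ679 ZT2. The other 4 libraries are wild-type heads of strain w1118, 2 at ZT14 and 2 at ZT2, and serve as the values set beside those of the mutant. All flies were reared and entrained in 12 h of light and 12 h of dark at 25 °C, with 3 days of entrainment before the day of collection. ZT counts hours from lights-on, so ZT14 lay 2 h after lights-off and ZT2 lay 2 h after lights-on. The labels give neither the sex, the age nor the number of flies in a library. They do not say that the 2 libraries of a group came from separate cultures, so p-values measure the spread between these samples, which may be technical. They also do not say whether the mutant and the wild-type stock share a genetic background.

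vri encodes VRILLE, a bZIP protein of the circadian clock. CLOCK and CYCLE switch on per, tim, vri, Pdp1 and cwo in the evening, PER and TIM return to the nucleus to shut CLOCK and CYCLE off, and VRILLE and PDP1 act on Clk, the first as a repressor and the second as an activator. In wild-type heads this machinery makes evening genes peak in the early night and Clk and cry peak around dawn.

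Levels below are FPKM (fragments per kilobase of transcript, scaled to mapped reads), summed over the transcripts of a gene and scaled between libraries by the median of ratios. The libraries had between 49.3 and 65.4 M mapped reads, and between 47.1 and 62.0 M reads on listed transcripts. The 10122 genes at 1 FPKM or more in at least 2 libraries were tested with limma on log2(scaled FPKM + 0.5), in one fit of all 4 groups. A difference is ZT14 minus ZT2 on that log2 scale, given with its standard error (SE). A gene is said to have risen or fallen where its limma p, after Benjamini-Hochberg adjustment across the tested genes, was under 0.05. The genotype by time difference is the ZT14 minus ZT2 difference in vriΔ679 minus that in wild type, tested in the same fit.

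The mutated gene was examined first, because it checks the labels. Transcripts of vri that begin at the long-protein start (2L 5305650) stood at 0.218 FPKM in vriΔ679 ZT14 replicate 1 but at 30.0 FPKM in the library labelled vriΔ679 ZT14 replicate 2, against 0.0183 and 0.0117 FPKM at vriΔ679 ZT2. They made up 1.00 % and 74.1 % of vri signal in the ZT14 libraries and 0.504 % and 0.275 % in the ZT2 libraries of the mutant, and 95.5 to 99.6 % in the wild-type libraries. These transcripts overlap, and the division of short reads among them is uncertain, which limits the shares. By these values the library labelled replicate 2 stands between the mutant and the wild-type libraries at vri, and goes against its label there. At 2 other genes that separate the stocks, both chosen after their values were seen, it lay with the mutant. Genes that separate the libraries by label place it there by that choice, so these 2 do not check its label. CG5391 stood at 0.114 and 0.0 FPKM in the ZT14 libraries of vriΔ679 and 0.203 and 0.0 in its ZT2 libraries, against 28.0 to 36.5 FPKM in wild type, and Mec2 at 14.1, 9.53, 9.62 and 7.94 FPKM in the same order, against 0.0 to 0.108 in wild type.

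The ZT14 libraries of the mutant also differed from each other more than those of any other group. Of the genes tested, 401 (3.96 %) were over 2-fold apart between them, against 190 at vriΔ679 ZT2, 141 at wild-type ZT14 and 157 at wild-type ZT2. Transcript length moved with this difference. The median log2 difference of replicate 1 minus the library labelled replicate 2 was 0.41 for genes with a longest transcript under 1 kb, 0.24 at 1 to 2 kb, 0.00 at 2 to 3 kb, −0.26 at 3 to 5 kb and −0.46 over 5 kb. Relative to the mean of the ZT2 libraries, the same medians in replicate 1 lay between 0.37 in the shortest class and −0.55 in the longest, whereas in the library labelled replicate 2 they lay between −0.03 and 0.01. The length-related displacement was thus in replicate 1, and the departure at vri in the other library. Results are therefore given with both ZT14 values. For single genes the calls obtained without either library are given where these differ, and for some lists the medians.

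**Figure D1:**
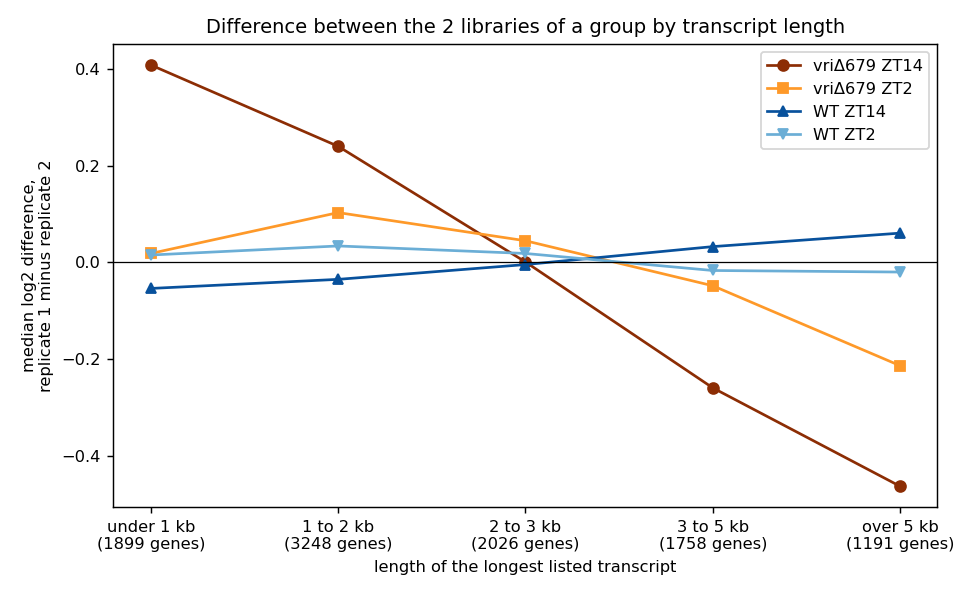
Median log2 difference between the 2 libraries of each group (y axis, replicate 1 minus replicate 2) for genes grouped by the length of the longest listed transcript (x axis), with 1 line for each of the 4 groups. The vriΔ679 ZT14 line runs from 0.41 under 1 kb to −0.46 over 5 kb, that of vriΔ679 ZT2 stays within −0.21 and 0.10, and the wild-type lines stay within −0.05 and 0.06.

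At vriΔ679 ZT14, 363 genes (3.59 % of those tested) rose and 646 (6.38 %) fell relative to ZT2, together 9.97 %. Counts for the gene lists below are to be read against these shares. The libraries of the 2 times did not overlap for 56.3 % of the genes tested, with ZT14 higher for 27.4 % and lower for 28.9 %, so a lack of overlap alone is common here. In wild type, 396 genes (3.91 %) rose and 275 (2.72 %) fell over the same hours, together 6.63 %, and the genotype by time difference was called for 835 genes (8.25 %), 240 higher (2.37 %) and 595 lower (5.88 %). Of the 363 that rose in the mutant, 44 also rose in wild type, 17 fell there and 302 were not called there. Of the 646 that fell in the mutant, 76 also fell in wild type, 99 rose and 471 were not called. With quantile normalization in place of the median of ratios, 699 genes rose and 587 fell, so the balance between the directions depends on the scaling. The count hangs on the ZT14 library used: 300 (2.96 %) rose and 660 (6.52 %) fell without replicate 1, and 2212 (21.9 %) rose and 2400 (23.7 %) fell without the library labelled replicate 2. Leaving out any library leaves its group with 1 sample, which the fit assumes to vary like the other groups. For vriΔ679 ZT14 the group-specific weights below go against that assumption, so fits without one of its libraries give values and calls but do not show that a result is stable. When each group was given its own spread (group-specific weights, of 0.236 for vriΔ679 ZT14 against 1.28 to 1.89 for the other groups), 25 genes (0.247 %) rose and 62 (0.613 %) fell. Whichever of the 8 libraries was left out, 35 of the genes that rose and 135 of those that fell were called again. Among the 89 called genes named below, 44 were called again whichever library was left out, under the same assumption, and 33 with group-specific weights.

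All 5 evening genes of the clock rose at ZT14 in the mutant, with a median difference of 2.77. per, whose protein is the repressor of the loop (X 2685580–2692780), stood at 94.4 FPKM in ZT14 replicate 1 and 81.6 FPKM in the library labelled replicate 2, against 5.47 and 6.76 FPKM at ZT2. The wild-type libraries had 44.6 and 32.0 FPKM at ZT14 against 7.70 and 9.63 FPKM at ZT2. The mutant therefore had the higher values at ZT14 and the lower ones at ZT2, with no overlap between genotypes at either time. per rose by 3.75 (SE 0.20, adjusted p = 0.000406) in vriΔ679, and the genotype by time difference was 1.67 (SE 0.29, adjusted p = 0.0183). The call of the rise held whichever library was left out and with group-specific weights. That of the genotype by time difference was lost without vriΔ679 ZT2 replicate 1, wild-type ZT14 replicate 2 or wild-type ZT2 replicate 2, with adjusted p up to 0.082, and with group-specific weights (adjusted p = 0.0646).

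tim, whose protein carries PER and is degraded in light (2L 3493986–3508119), stood at 226 and 288 FPKM at ZT14 against 24.2 and 27.5 FPKM at ZT2. It rose by 3.28 (SE 0.18, adjusted p = 0.000406), and in wild type by 2.93, with no call for the difference between the genotypes (0.35, adjusted p = 0.397). Exons of per and tim overlap other genes, and the strand setting of the counting is not given, so both sets of values carry that limit. vri, summed over all its transcripts (2L 5288944–5311223), stood at 21.7 and 40.4 FPKM at ZT14 against 3.62 and 4.27 FPKM at ZT2. Its rise of 2.77 (SE 0.27, adjusted p = 0.00325) was 2.33 without the library labelled replicate 2 (adjusted p = 0.00122) and 3.21 without replicate 1 (adjusted p = 0.000745). The starts upstream of the long-protein start gave 21.5 and 10.5 FPKM at ZT14 against 3.605 and 4.256 FPKM at ZT2. Signal from these starts was thus higher at ZT14 in both libraries, but the rise was not called. The tested transcript among them (3890 bases) had a difference of 1.81 (SE 0.64, limma adjusted p = 0.214 over 18982 transcripts tested).

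cwo, which encodes a repressor of the same evening genes (3R 10388258–10400752), had 21.5 and 34.0 FPKM at ZT14 against 11.3 and 11.4 FPKM at ZT2. Pdp1, the activator of Clk (3L 7811458–7867369), had 214 and 332 FPKM at ZT14 against 143 and 150 FPKM at ZT2. Both were above their ZT2 values in each ZT14 library, and both were higher in the library labelled replicate 2. cwo rose by 1.22 (SE 0.21, adjusted p = 0.0189) and Pdp1 by 0.86 (SE 0.20, adjusted p = 0.0432). The cwo call was lost without vriΔ679 ZT2 replicate 1 or replicate 2 (adjusted p = 0.0939 and 0.0928). The Pdp1 call held only without one of the vriΔ679 ZT14 libraries, with adjusted p of 0.0874 to 0.176 when any other library was left out. Both were also lost with group-specific weights (adjusted p = 0.0796 and 0.12).

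The transcripts of Pdp1 did not move together. The 6398-base transcript (3L 7811915–7855548) stood at 148 and 109 FPKM at ZT14 against 31.5 and 39.4 FPKM at ZT2, and rose by 1.84 (SE 0.20, limma adjusted p = 0.017 over 18982 transcripts tested, of which 453, or 2.39 %, were called). That call was lost in 2 of the 8 fits without 1 library. The 5065-base transcript (3L 7814337–7855548) stood at 7.75 FPKM in replicate 1 and 106 FPKM in that library, against 48.1 and 47.5 FPKM at ZT2. The ZT14 libraries lay on opposite sides of the ZT2 libraries, so no direction can be given for it: its difference of −0.70 was not called (adjusted p = 0.748). Division of short reads among overlapping transcripts is uncertain. Both per transcripts rose, by 3.79 (4441 bases, adjusted p = 0.00734) and 3.57 (4527 bases, adjusted p = 0.0009), as did the 2 abundant tim transcripts, by 3.73 (5641 bases, adjusted p = 0.00133) and 3.34 (5404 bases, adjusted p = 0.00531).

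The 2 genes that peak around dawn fell at ZT14. Clk, which encodes the activator of the evening genes (3L 7763233–7775603), had 6.12 and 8.40 FPKM at ZT14 against 13.6 and 14.6 FPKM at ZT2, and fell by 0.92 on the log2 scale (SE 0.15, adjusted p = 0.0163). cry, the blue-light receptor that makes TIM unstable (3R 19212154–19215442), had 80.3 and 96.5 FPKM at ZT14 against 154 and 134 FPKM at ZT2, and fell by 0.71 (SE 0.14, adjusted p = 0.0246). In each the ZT14 libraries lay below both ZT2 libraries. In wild type Clk had 3.57 and 3.53 FPKM at ZT14 against 10.7 and 10.3 FPKM at ZT2, and cry 68.4 and 64.2 FPKM against 168 and 159 FPKM. The smaller difference in the mutant was not called for either gene (genotype by time 0.52, adjusted p = 0.18, and 0.59, adjusted p = 0.108). The Clk call was lost without vriΔ679 ZT2 replicate 1 or replicate 2 (adjusted p = 0.0751 and 0.0947). The cry call held only without one of the vriΔ679 ZT14 libraries, with adjusted p of 0.0574 to 0.143 when any other library was left out. cyc, the partner of Clk, stood at 23.9 and 22.9 FPKM at ZT14 against 21.3 and 19.2 FPKM at ZT2 and was not called (adjusted p = 0.238).

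**Figure D2:**
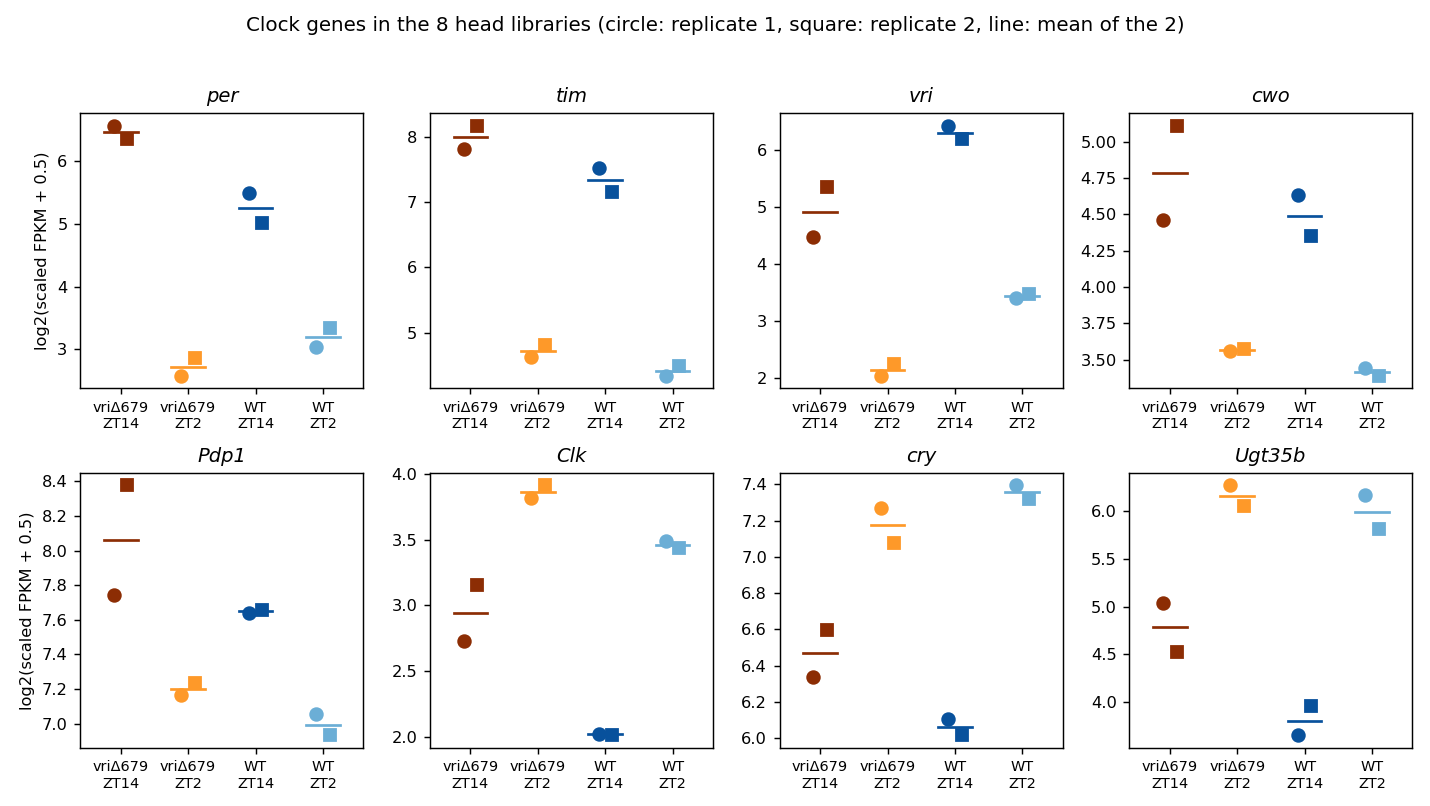
Log2(scaled FPKM + 0.5) of 8 clock and output genes (y axes, each with its own range) in the 4 groups of libraries (x axes), with 1 point for each library and a line at the mean of 2. per, tim, vri, cwo and Pdp1 stand higher in both vriΔ679 ZT14 libraries than in both vriΔ679 ZT2 libraries, and Clk, cry and Ugt35b stand lower.

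Among 15 other clock genes, 1 rose and 1 fell, against 3.59 % higher and 6.38 % lower among all genes tested. Atx2, an RNA-binding protein needed for PER translation in clock neurons (3R 15408423–15417277), had 13.6 and 21.3 FPKM at ZT14 against 40.1 and 44.0 FPKM at ZT2. It fell by 1.28 (SE 0.20, adjusted p = 0.0141), and its genotype by time difference was −1.44 (SE 0.28, adjusted p = 0.0283). Its longest transcript is over 5 kb, and the call of the fall was lost without vriΔ679 ZT2 replicate 1 or replicate 2 (adjusted p = 0.0635 and 0.0818) and with group-specific weights (adjusted p = 0.0502). The genotype by time call held only without one of the vriΔ679 ZT14 libraries.

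Of 14 clock output genes, 5 rose and 2 fell, against 3.59 % higher and 6.38 % lower among all genes tested. Ubpy, which encodes the ubiquitin protease Usp8 (3R 21134262–21138214), stood at 131 and 148 FPKM at ZT14 against 25.3 and 33.5 FPKM at ZT2. Its rise of 2.24 (SE 0.16, adjusted p = 0.00101) stood beside 2.52 in wild type, and the call held whichever library was left out and with group-specific weights. Inos, the enzyme that makes inositol phosphate from glucose 6-phosphate (2R 7454922–7458874), had 538 and 455 FPKM at ZT14 against 233 and 224 FPKM at ZT2, and rose by 1.11 (SE 0.13, adjusted p = 0.00538). Slob, a binding partner of the Slowpoke potassium channel (2L 7642005–7675078), had 205 and 227 FPKM against 96.4 and 103 FPKM, and rose by the same 1.11 (SE 0.13, adjusted p = 0.00472). Cyp18a1, the P450 that inactivates ecdysone, had 9.46 and 8.09 FPKM at ZT14 against 4.47 and 3.82 FPKM at ZT2 and rose by 1.00 (SE 0.14, adjusted p = 0.00928). That call was lost without vriΔ679 ZT2 replicate 2 (adjusted p = 0.0677).

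Ugt35b, a UDP-glycosyltransferase gene rhythmic in heads (3R 11168503–11170246), had 32.4 and 22.5 FPKM at ZT14 against 76.7 and 66.0 FPKM at ZT2, and fell by 1.38 (SE 0.22, adjusted p = 0.0141). e, which encodes Ebony, the enzyme that joins beta-alanine to dopamine and histamine, was named after its values were seen. It had 13.0 and 10.2 FPKM at ZT14 against 22.6 and 34.4 FPKM at ZT2 and fell by 1.24 (SE 0.22, adjusted p = 0.0202). The Ugt35b call was lost without vriΔ679 ZT2 replicate 1 or replicate 2 (adjusted p = 0.0832 and 0.0597), and the e call without replicate 2 (adjusted p = 0.0863). to, the clock-controlled gene takeout (3R 25240180–25241668), had 44.2 and 29.2 FPKM at ZT14 against 76.3 and 59.6 FPKM at ZT2. Its difference of −0.90 was not called (SE 0.25, adjusted p = 0.068), but was called without vriΔ679 ZT14 replicate 1 (−1.19, adjusted p = 0.0444).

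Other genes rose as steeply as the clock genes. cyr (X 8121280–8135713) stood at 12.8 and 13.2 FPKM at ZT14 against 1.11 and 1.12 FPKM at ZT2, a rise of 3.07 (SE 0.12, adjusted p = 0.000172), and by 2.86 in wild type. gol, which encodes the goliath ubiquitin ligase (2R 25072627–25084347), had 222 and 243 FPKM against 64.6 and 73.1 FPKM and rose by 1.75 (SE 0.12, adjusted p = 0.000754). rgr had 21.6 and 29.9 FPKM at ZT14 against 6.17 and 6.42 FPKM at ZT2, and CG31710 had 102 and 73.3 FPKM against 16.9 and 23.5 FPKM. rgr rose by 1.93 (adjusted p = 0.00226) and CG31710 by 2.09 (adjusted p = 0.00326). All 4 rose in wild type too, by 1.35 to 2.86, and none of them was called for the difference between genotypes (adjusted p = 0.186 to 0.977).

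Other genes rose in the mutant but were not called higher in wild type. CRG, a noncoding RNA (3R 21783540–21786208), stood at 258 and 235 FPKM at ZT14 against 36.2 and 46.5 FPKM at ZT2, and in wild type at 27.9 and 26.8 FPKM against 37.1 and 39.5 FPKM. The vriΔ679 ZT14 libraries stood above all 6 others. CRG rose by 2.57 (SE 0.14, adjusted p = 0.000438), with a genotype by time difference of 3.05 (SE 0.20, adjusted p = 0.000945). DnaJ-60, which encodes a J-domain protein (2R 24157668–24159312), had 57.3 and 46.0 FPKM at ZT14 against 8.97 and 7.85 FPKM at ZT2, and in wild type 15.8 and 13.0 FPKM against 18.7 and 23.8 FPKM. It rose by 2.54 (SE 0.18, adjusted p = 0.000943), with a genotype by time difference of 3.09 (SE 0.25, adjusted p = 0.00157). Both calls of both genes held whichever library was left out and with group-specific weights.

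Sirt4, a mitochondrial sirtuin gene (X 5664628–5665940), differed in another way. It had 21.2 and 14.7 FPKM at vriΔ679 ZT14, against 1.01 and 2.82 FPKM at vriΔ679 ZT2, while all 4 wild-type libraries lay between 20.5 and 25.2 FPKM. The low group was therefore the mutant at ZT2, and the rise was 3.02 (SE 0.35, adjusted p = 0.00532; group-specific weights, adjusted p = 0.114). CG13931 had 17.1 and 12.1 FPKM at ZT14 against 4.10 and 3.57 FPKM at ZT2, and in wild type 2.53 and 1.08 FPKM against 5.93 and 5.89 FPKM. It rose by 1.78 in the mutant (SE 0.31, adjusted p = 0.0177) and fell by 1.55 in wild type, a genotype by time difference of 3.33 (SE 0.43, adjusted p = 0.00764). The rise was not called without vriΔ679 ZT14 replicate 1 (adjusted p = 0.0642) or without either vriΔ679 ZT2 library (adjusted p = 0.0761 and 0.0947). Exons of CRG, DnaJ-60, Sirt4 and rgr overlap another gene, CASK in the case of CRG and Dat in the case of DnaJ-60, so reads may be shared.

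Among neuropeptide genes, 10 of 28 tested rose in the mutant by 0.47 to 0.93 and 2 fell, with a median of 0.30, against −0.02 over all genes tested. In wild type 2 rose and 8 fell (median −0.33), and the genotype by time difference was called higher for 13 and lower for 3. The median in the mutant was 0.38 without vriΔ679 ZT14 replicate 1 and 0.27 without the library labelled replicate 2. With group-specific weights 0 rose and 1 fell in the mutant. In these head samples, fewer cells of a type and less RNA per cell cannot be told apart, here and in every result below. Pdf, the transmitter of the ventral clock neurons (3R 26455462–26456141), had 122 and 106 FPKM at ZT14 against 63.2 and 56.7 FPKM at ZT2, and in wild type 52.7 and 56.0 FPKM against 79.4 and 82.4 FPKM. The order of the times was thus opposite in the 2 genotypes. Pdf rose by 0.92 (SE 0.12, adjusted p = 0.00804), with a genotype by time difference of 1.49 (SE 0.17, adjusted p = 0.00498). The rise was not called without vriΔ679 ZT2 replicate 2 (adjusted p = 0.0614), whereas the genotype by time call held whichever library was left out.

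Dsk, a satiety peptide of the insulin-producing cells (3R 4189692–4190260), had 199 and 195 FPKM at ZT14 against 102 and 113 FPKM at ZT2. Its rise was 0.87 (SE 0.12, adjusted p = 0.00901) and its genotype by time difference 1.68 (SE 0.17, adjusted p = 0.00314). The rise was not called without vriΔ679 ZT2 replicate 1 (adjusted p = 0.0673). Orcokinin, listed as CG13565 and outside the list of 28, had 182 and 153 FPKM at ZT14 against 71.2 and 75.7 FPKM at ZT2, and in wild type 51.7 and 51.7 FPKM against 93.4 and 86.0 FPKM. It rose by 1.18 (SE 0.12, adjusted p = 0.00401), with a genotype by time difference of 1.97 (SE 0.18, adjusted p = 0.00227), and its calls held whichever library was left out and with group-specific weights. The next 3 peptides were named after their values were seen. Trissin had 108 and 84.7 FPKM at ZT14 against 51.7 and 48.5 FPKM at ZT2 and rose by 0.93 (adjusted p = 0.0163). Hug, the precursor of hugin, had 98.7 and 83.9 FPKM against 50.4 and 46.4 FPKM and rose by 0.91 (adjusted p = 0.00981). NPF, which regulates feeding, had 64.7 and 61.0 FPKM against 46.2 and 44.5 FPKM and rose by 0.47 (adjusted p = 0.0358). These calls were lost without vriΔ679 ZT2 replicate 2 (adjusted p = 0.0937 for Trissin, 0.073 for Hug and 0.189 for NPF), and that of NPF held only without one of the vriΔ679 ZT14 libraries.

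Of 4 insulin-like peptide genes tested, Ilp3 and Ilp5 fell, and Ilp2 and Ilp6 were not called. Ilp5 (3L 9823349–9823897) had 21.3 and 16.3 FPKM at ZT14 against 49.0 and 49.7 FPKM at ZT2, whereas in wild type it had 58.0 and 65.8 FPKM at ZT14 against 28.2 and 31.1 FPKM at ZT2. Groups did not overlap in either genotype. Ilp5 fell by 1.38 in the mutant (SE 0.15, adjusted p = 0.00425), and the genotype by time difference was −2.43 (SE 0.21, adjusted p = 0.00209). Ilp3 (3L 9801298–9802120) had 27.2 and 23.5 FPKM at ZT14 against 61.1 and 60.9 FPKM at ZT2 and fell by 1.25 (SE 0.17, adjusted p = 0.0079), a call not kept without vriΔ679 ZT2 replicate 2 (adjusted p = 0.0512).

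Opsin genes rose as well. Of 7 tested, 4 rose and none fell, with a median of 0.70; 2 of the 4 passed with group-specific weights and 2 with quantile normalization. Rh6, the opsin of one class of R8 photoreceptors (3R 15483158–15484699), stood at 1322 and 1146 FPKM at ZT14 against 494 and 451 FPKM at ZT2, while the wild-type libraries lay between 560 and 640 FPKM. The mutant libraries thus lay above all wild-type values at ZT14 and below all of them at ZT2. Rh6 rose by 1.38 (SE 0.14, adjusted p = 0.00379), with a genotype by time difference of 1.47 (SE 0.20, adjusted p = 0.00909). Rh5, the opsin of the other R8 class (2L 12008153–12009832), had 560 and 463 FPKM at ZT14 against 243 and 234 FPKM at ZT2 and rose by 1.09 (SE 0.13, adjusted p = 0.00639). Both rises held whichever library was left out, but the genotype by time call of Rh6 was lost without replicate 2 of either wild-type group (adjusted p up to 0.0591).

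The R7 opsins differed less. Rh4 (3L 16852527–16862517) rose by 0.80 (adjusted p = 0.0191) and Rh3 (3R 20081060–20082450) by 0.70 (adjusted p = 0.0336), calls that held only without one of the vriΔ679 ZT14 libraries and were lost with quantile normalization (adjusted p = 0.107 and 0.154). Of 20 phototransduction genes, 1 rose and 1 fell, against 3.59 % higher and 6.38 % lower among all genes tested. Arr1, an arrestin that ends the rhodopsin signal (2L 18078269–18081307), had 8049.6 and 8380.1 FPKM at ZT14 against 4438 and 3948 FPKM at ZT2. It rose by 0.97 (SE 0.17, adjusted p = 0.0175), with the same losses as Rh4 and Rh3 (quantile normalization, adjusted p = 0.103). ninaD, the scavenger receptor for carotenoid uptake whose gene lies next to Arr1 (2L 18081628–18083608), went the other way, at 0.879 and 1.60 FPKM against 8.92 and 8.98 FPKM. It fell by 2.47 (SE 0.33, adjusted p = 0.00845), a call not kept without vriΔ679 ZT2 replicate 2 (adjusted p = 0.0509).

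Several genes of the antenna fell in the mutant, among them the gene with the lowest fitted difference of all tested. That gene, Os-C (3R 7978959–7979614), encodes an antennal protein and stood at 1.44 and 0.0534 FPKM at ZT14 against 118 and 88.2 FPKM at ZT2, and in wild type at 0.0524 and 0.147 FPKM against 8.45 and 4.47 FPKM. The vriΔ679 ZT2 libraries stood above all others by more than 10-fold. Os-C fell by 6.63 (SE 0.59, adjusted p = 0.00329), called whichever library was left out, and the genotype by time difference of −3.15 was not called (SE 0.83, adjusted p = 0.0719). The antennal genes a10 (3L 17023123–17023741) and a5 (2L 1329161–1329993) followed the same order. a10 had 7.46 and 0.509 FPKM at ZT14 against 187 and 121 FPKM at ZT2, and a5 had 0.34 and 0.0 FPKM against 34.2 and 23.6 FPKM. The difference was −5.73 for a10 (SE 0.92, adjusted p = 0.0229), and that of a5 was −5.48 (SE 0.37, adjusted p = 0.000711). The a10 call held only without one of the vriΔ679 ZT14 libraries (adjusted p = 0.0508 to 0.11 without any other). The pseudocount of 0.5 FPKM lies at or above several of the ZT14 levels, so these differences understate the ratios.

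Odorant-binding proteins carry odorants to receptors in the lymph of the sensory hairs. Of 30 such genes tested, 6 fell, with differences of −3.17 to −5.72, and none rose, and 5 fell with group-specific weights. Among all genes tested, 6.38 % fell and 3.59 % rose. The median of the list was −0.46 without replicate 1 and −0.06 without the library labelled replicate 2. Obp83a (3R 5972155–5975245) had 7.23 and 0.589 FPKM at ZT14 against 193 and 120 FPKM at ZT2, and its neighbour Obp83b (3R 5976177–5976817) had 4.36 and 0.639 FPKM against 139 and 90.1 FPKM. The difference was −5.72 for Obp83a (SE 0.89, adjusted p = 0.0209), and that of Obp83b was −5.58 (SE 0.66, adjusted p = 0.00812). In wild type Obp83a had 0.476 and 0.458 FPKM at ZT14 against 14.4 and 9.81 FPKM at ZT2. Obp83b had 0.540 and 0.267 FPKM there against 8.81 and 6.69 FPKM. Neither genotype by time difference was called (−2.04, adjusted p = 0.349, and −2.38, adjusted p = 0.169). At vriΔ679 ZT14 both genes were over 6-fold higher in replicate 1 than in the library labelled replicate 2. The Obp83a call was lost without vriΔ679 ZT2 replicate 1 or replicate 2 (adjusted p = 0.105 and 0.0863), and that of Obp83b without replicate 1 (adjusted p = 0.0518). Obp28a (2L 7496791–7497365) differed in wild type from the rest, at 36.7 and 34.2 FPKM at ZT14 against 32.6 and 27.7 FPKM at ZT2. In the mutant it had 19.7 and 10.98 FPKM at ZT14 against 146 and 128 FPKM at ZT2, and fell by 3.17 (SE 0.25, adjusted p = 0.00143), with a genotype by time difference of −3.41 (SE 0.36, adjusted p = 0.00341).

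Obp69a (3L 12396171–12396957), Obp59a (2R 22702695–22703786) and Obp19a (X 20415744–20416521) fell, with differences of −4.03, −4.10 and −4.63 (adjusted p = 0.00118, 0.00326 and 0.00399), all called whichever library was left out. In wild type Obp19a had 0.0 and 0.0 FPKM at ZT14 against 2.09 and 1.08 FPKM at ZT2. Its genotype by time difference was not called (−2.61, adjusted p = 0.0642). lush, the binding protein needed to sense the male pheromone cVA, was added after its values were seen. It had 2.07 and 1.31 FPKM at ZT14 against 32.1 and 16.3 FPKM at ZT2 and fell by 3.44 (SE 0.37, adjusted p = 0.00415). Exons of Os-C, Obp69a and Obp59a overlap another gene.

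The odorant receptors themselves were also examined after these values were seen. Of 60 receptor genes in the files 11 were tested, of which 6 fell and none rose. Or22b, Or42b, Or59b and Or85e, all among the 6, reached 1 FPKM only in the 2 vriΔ679 ZT2 libraries. They entered the test through the group where they were high, so their falls do not count as support. Summed over the 60, receptor signal was 23.1 and 19.8 FPKM at vriΔ679 ZT14, against 59.5 and 45.3 FPKM at vriΔ679 ZT2, and lay between 16.5 and 20.2 FPKM in the wild-type libraries. Orco, the co-receptor shared by most odorant receptor neurons (3R 5407183–5410469), had 2.97 and 2.50 FPKM at ZT14 against 24.8 and 16.4 FPKM at ZT2, and in wild type 3.09 and 2.41 FPKM against 4.05 and 3.57 FPKM. It fell by 2.68 (SE 0.21, adjusted p = 0.00143), with a genotype by time difference of −2.27 (SE 0.30, adjusted p = 0.00877), and both calls held whichever library was left out. Or59b, a receptor of the antenna (2R 23470165–23471775), had 0.071 and 0.0283 FPKM at ZT14 against 2.01 and 1.62 FPKM at ZT2 and fell by 2.07 (SE 0.17, adjusted p = 0.00143). None of 10 ionotropic receptor genes tested was called, and 1 of 9 gustatory receptor genes fell. For the antennal genes named here, the vriΔ679 ZT2 libraries were thus the ones that stood apart. Odorant-binding protein genes summed over the files did not show this. Their sums were 8200 and 5287 FPKM at vriΔ679 ZT14 against 7437 and 6254 FPKM at vriΔ679 ZT2, and 6736 to 8776 FPKM in wild type. A lower level at ZT14 was not particular to the mutant for all of the named genes. Os-C, Obp83a, Obp83b and Obp19a were lower at ZT14 in wild type too, without a genotype by time call, whereas Obp28a was not lower there. Obp69a and Obp59a were also lower at ZT14 in wild type, with a genotype by time call. Obp59a had 0.0 and 0.0 FPKM at wild-type ZT14 against 1.35 and 0.535 FPKM at wild-type ZT2, where the pseudocount limits the size of a fall. The labels do not say how heads were separated or whether antennae stayed attached, and the part of either in these falls was not tested.

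**Figure D3:**
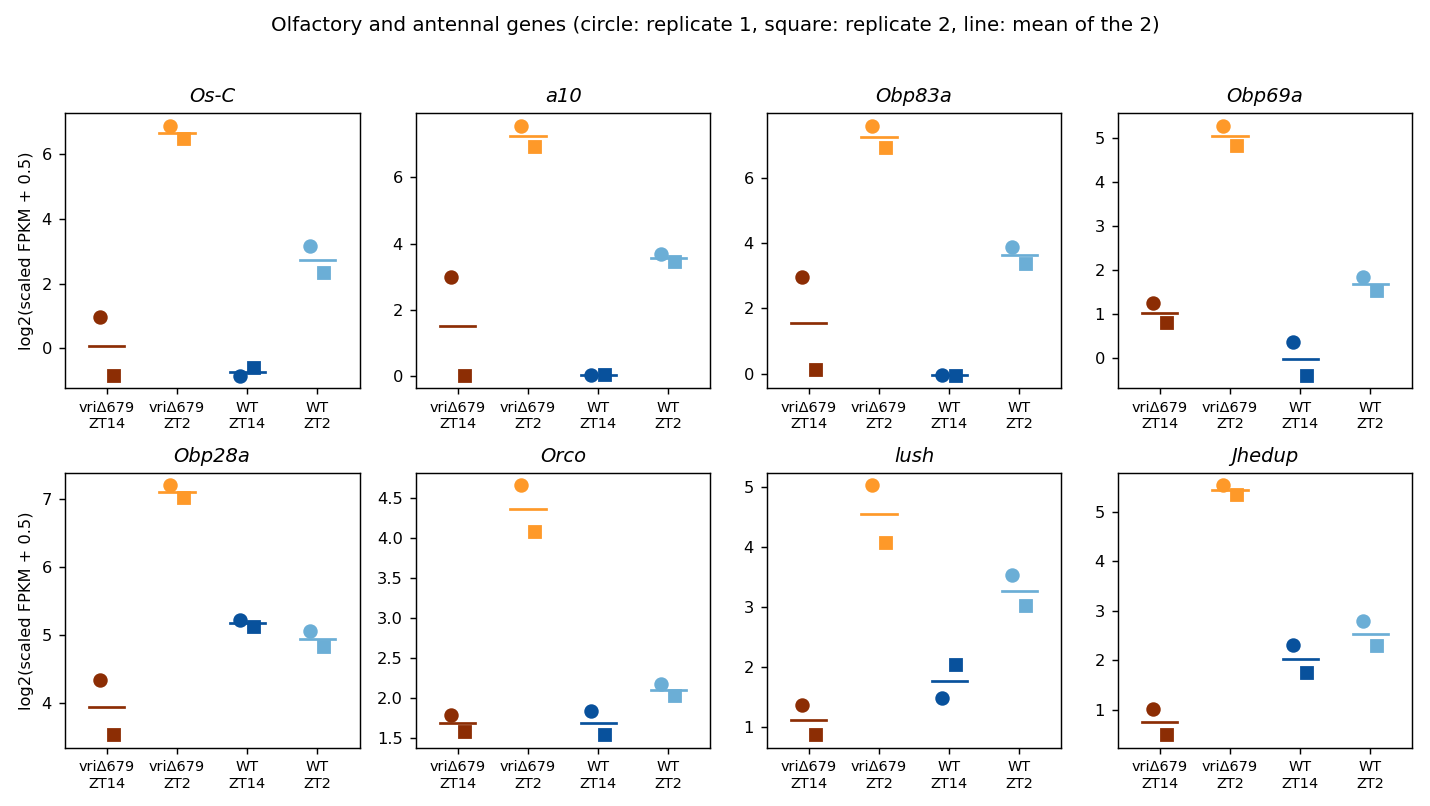
Log2(scaled FPKM + 0.5) of 7 olfactory genes and Jhedup (y axes, each with its own range) in the 4 groups (x axes), with 1 point for each library and a line at the mean of 2. In every panel the vriΔ679 ZT2 libraries are the highest of the 8, for example 118 and 88.2 FPKM for Os-C.

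Jhedup and GstE4, which encode enzymes that act on small molecules, fell as well. Jhedup, a carboxylesterase that resembles juvenile hormone esterase (2R 16117109–16119149), had 1.53 and 0.898 FPKM at ZT14 against 46.1 and 40.4 FPKM at ZT2, and between 2.83 and 6.40 FPKM in wild type. It fell by 4.69 (SE 0.27, adjusted p = 0.000479), with a genotype by time difference of −4.18 (SE 0.39, adjusted p = 0.00235). GstE4, a glutathione S-transferase gene (2R 18403248–18404086), had 3.19 and 1.35 FPKM at ZT14 against 63.7 and 51.5 FPKM at ZT2, and between 2.46 and 6.43 FPKM in wild type. It fell by 4.47 (SE 0.33, adjusted p = 0.00118). In both genes the vriΔ679 ZT2 libraries stood above the other 6, and the calls held whichever library was left out and with group-specific weights.

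CG11391, annotated as Acsx2 (3R 19778750–19780727), showed the same order, at 0.522 and 0.0719 FPKM against 30.1 and 18.2 FPKM, a fall of 4.97 (SE 0.33, adjusted p = 0.000711). GstD8 fell by 1.46 (SE 0.15, adjusted p = 0.00381). Over the families, 5 of 31 glutathione S-transferase genes, 8 of 71 cytochrome P450 genes and 5 of 17 UDP-glycosyltransferase genes fell, and 0, 1 and 0 rose. Among all genes tested, 6.38 % fell and 3.59 % rose. With group-specific weights, 1 glutathione S-transferase gene and no gene of the other families passed. Jhe, the esterase that clears juvenile hormone (2R 16119793–16122773), had 2.55 and 2.29 FPKM at ZT14 against 11.9 and 10.8 FPKM at ZT2. It fell by 2.02 (SE 0.21, adjusted p = 0.00368) in the mutant and by 1.85 in wild type. CG34217 (2R 8227990–8228727) had 0.312 and 0.483 FPKM at ZT14 against 17.7 and 65.4 FPKM at ZT2 and fell by 5.28 (SE 0.62, adjusted p = 0.00761), a call not kept without vriΔ679 ZT14 replicate 1 (adjusted p = 0.0575).

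Many cuticle protein genes fell. Of 49 tested, 18 fell, with differences of −0.73 to −2.94, and none rose, with a median of −0.62. In wild type 18 rose and 4 fell (median 0.50), and the genotype by time difference was called lower for 22 and higher for 1. In the mutant the median was −0.74 without replicate 1 and −0.59 without the library labelled replicate 2, and 3 fell with group-specific weights. Cpr66D (3L 8640439–8643584) stood at 4.06 and 4.48 FPKM at ZT14 against 37.3 and 34.8 FPKM at ZT2, and in wild type at 4.54 and 4.74 FPKM against 20.5 and 17.3 FPKM. It fell by 2.94 (SE 0.13, adjusted p = 0.000172) in the mutant and by 1.91 in wild type, called in the mutant whichever library was left out and with group-specific weights.

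The next 4 members had the opposite order of times in wild type. Cpr97Ea (3R 27083130–27087778) had 24.6 and 14.7 FPKM at vriΔ679 ZT14 against 73.6 and 84.0 FPKM at vriΔ679 ZT2, and 131 and 169 FPKM at wild-type ZT14 against 46.4 and 44.6 FPKM at wild-type ZT2. It fell by 2.02 in the mutant (SE 0.24, adjusted p = 0.00617), with a genotype by time difference of −3.71 (SE 0.35, adjusted p = 0.00235). Ccp84Aa (3R 6704084–6704903) fell by 1.59 (SE 0.19, adjusted p = 0.00629), with a genotype by time difference of −3.37. Cpr76Bd (3L 19532743–19538289) had 7.37 and 7.19 FPKM at ZT14 against 15.9 and 17.8 FPKM at ZT2 and fell by 1.15 (SE 0.14, adjusted p = 0.00646), where wild type rose by 2.36. Cpr62Bc (3L 1840281–1842084), named after its values were seen, had 66.8 and 59.3 FPKM against 109 and 129 FPKM and fell by 0.91 (adjusted p = 0.0148), where wild type rose by 2.56. That call was lost without vriΔ679 ZT2 replicate 2 (adjusted p = 0.0901).

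Genes whose products make, modify or bind chitin, also named after their values were seen, showed the same order. kkv, the chitin synthase (3R 5378093–5392866), had 3.45 and 3.39 FPKM at ZT14 against 12.3 and 18.2 FPKM at ZT2, and in wild type 25.3 and 29.7 FPKM against 10.5 and 10.6 FPKM. It fell by 1.98 (SE 0.19, adjusted p = 0.00278), with a genotype by time difference of −3.31 (SE 0.26, adjusted p = 0.00146). verm, a chitin deacetylase (3L 19690033–19695260), fell by 1.74 (SE 0.16, adjusted p = 0.00226), and obst-A, a chitin-binding protein (X 20239855–20243209), had a difference of −2.73 (SE 0.16, adjusted p = 0.000479). All 3 were called whichever library was left out and with group-specific weights. CG3777 (X 279703–350504), for which no role is given here, had 3.22 and 3.21 FPKM at ZT14 against 12.3 and 13.9 FPKM at ZT2, and in wild type 17.2 and 17.6 FPKM against 6.46 and 6.73 FPKM. It fell by 1.87 (SE 0.11, adjusted p = 0.000479), with a genotype by time difference of −3.21 (SE 0.15, adjusted p = 0.000537), although its exons overlap ewg.

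Fat body genes fell too. Of 14 tested, 8 fell, with differences of −1.004 to −4.66, and none rose, with a median of −1.34. The median was −1.48 without replicate 1 and −1.20 without the library labelled replicate 2, and with group-specific weights none was called. Lsp2, a storage protein of the hexamerin family (3L 12129393–12131869), stood at 4.45 and 5.88 FPKM at ZT14 against 257 and 77.7 FPKM at ZT2, and in wild type at 283 and 254 FPKM against 34.2 and 23.3 FPKM. The times were thus in opposite order in the 2 genotypes, and the vriΔ679 ZT2 libraries differed by over 3-fold. Lsp2 fell by 4.66 (SE 0.53, adjusted p = 0.0062), with a genotype by time difference of −7.88 (SE 0.74, adjusted p = 0.00318), called whichever library was left out. Fbp1, the receptor for hexamerins (3L 14094589–14098053), had 0.148 and 0.08 FPKM at ZT14 against 2.43 and 3.26 FPKM at ZT2, and Fbp2 (2L 9426784–9427917) had 0.244 and 0.121 FPKM against 5.57 and 5.81 FPKM. The difference was −2.44 for Fbp1 (SE 0.25, adjusted p = 0.00381), and that of Fbp2 was −3.19 (SE 0.40, adjusted p = 0.00677). Exons of Lsp2, Fbp2 and fit overlap another gene.

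fit, a satiety signal secreted by the fat body and more abundant in females (3R 21883924–21884454), had 12.3 and 10.3 FPKM at ZT14 against 201 and 155 FPKM at ZT2, and between 30.6 and 64.1 FPKM in wild type. It fell by 3.92 (SE 0.33, adjusted p = 0.0018), with a genotype by time difference of −4.29 (SE 0.47, adjusted p = 0.00387). The yolk protein gene Yp3 (X 13759546–13761547) had 608 and 435 FPKM at ZT14 against 3374 and 2143 FPKM at ZT2, and fell by 2.39 (SE 0.42, adjusted p = 0.0195). Yp2 (X 10050951–10052636) fell by 2.13 (SE 0.47, adjusted p = 0.0374). In wild type Yp3 had 2441 and 1141 FPKM at ZT14 against 4396 and 2877 FPKM at ZT2. The genotype by time difference was not called for Yp3 (−1.29, adjusted p = 0.219) or Yp2 (−1.12, adjusted p = 0.323). The Yp3 call was lost without vriΔ679 ZT14 replicate 1 (adjusted p = 0.058) or either vriΔ679 ZT2 library (adjusted p = 0.104 and 0.0593), and that of Yp2 without any vriΔ679 or wild-type ZT2 library (adjusted p = 0.0568 to 0.172). Yolk proteins are made by females. Of 4 female-enriched genes (Yp1, Yp2, Yp3 and fit) 3 fell. All 4 are also in the fat body list, so these falls are counted there too. Their summed level was 2663 and 1686 FPKM at ZT14 against 10289 and 6732 FPKM at ZT2. In wild type it was 7158 and 3343 FPKM at ZT14 against 13228 and 8356 FPKM at ZT2. None of 4 male-enriched genes was called, with sums of 258 and 112 FPKM against 141 and 139 FPKM. The sex of the flies is not given, and its part in the fat body values was not tested.

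Of 13 genes of the starvation response 3 fell and 1 rose, against 6.38 % lower and 3.59 % higher among all genes tested. None of the 13 was called with group-specific weights. Pepck, the entry enzyme of gluconeogenesis (2R 18536767–18539416), had 81.9 and 70.3 FPKM at ZT14 against 159 and 148 FPKM at ZT2, and fell by 1.01 (SE 0.13, adjusted p = 0.00677), a call not kept without vriΔ679 ZT2 replicate 1 (adjusted p = 0.0507). CG6188, annotated as the methyltransferase Gnmt (3R 12674608–12676084), had 6.05 and 5.60 FPKM against 43.3 and 22.5 FPKM, and fell by 2.33 (SE 0.36, adjusted p = 0.0131), lost without vriΔ679 ZT14 replicate 1 (adjusted p = 0.0665) or vriΔ679 ZT2 replicate 1 (adjusted p = 0.0523). AkhR, the receptor of the adipokinetic hormone, rose by 0.71 (adjusted p = 0.0234), a call that held only without one of the vriΔ679 ZT14 libraries.

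Of 10 lipid genes, 4 fell and none rose, against 6.38 % lower and 3.59 % higher among all genes tested. None of the 10 was called with group-specific weights. Lsd-1, a perilipin of the lipid droplet (3R 23763857–23766662), had 15.7 and 11.9 FPKM at ZT14 against 45.4 and 35.7 FPKM at ZT2 and fell by 1.53 (SE 0.24, adjusted p = 0.0146), a call not kept without vriΔ679 ZT2 replicate 1 or replicate 2 (adjusted p = 0.0848 and 0.0502). ATPCL and ACC, which supply fatty acid synthesis, had differences of −0.61 and −0.62 (adjusted p = 0.0222 and 0.0223). The ATPCL call held only without one of the vriΔ679 ZT14 libraries, and that of ACC was lost without any ZT2 library of either genotype (adjusted p = 0.0546 to 0.135). None of 14 glycolysis genes was called.

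Of 12 hemocyte markers 3 fell and none rose, against 6.38 % lower among all genes tested, and none was called with group-specific weights. Their median was −0.87, against −0.02 over all genes tested, with sums of 285 and 260 FPKM at ZT14 against 338 and 325 FPKM at ZT2. The collagen IV genes vkg (2L 5012144–5028191) and Cg25C (2L 5029609–5037279) had 12.9 and 11.8 FPKM and 20.3 and 19.7 FPKM at ZT14, against 26.0 and 26.4 FPKM and 44.0 and 47.6 FPKM at ZT2. The difference was −1.05 for vkg (adjusted p = 0.0209), and that of Cg25C was −1.17 (adjusted p = 0.0268). The calls were lost without either vriΔ679 ZT2 library (adjusted p = 0.099 to 0.133) and, for Cg25C, also without vriΔ679 ZT14 replicate 1 (adjusted p = 0.0717) or either wild-type ZT14 library. None of 19 muscle genes was called (median −0.28), 1 of 10 glial genes fell (median −0.38), and none of 13 neuronal genes was called (median −0.16). Muscle sums were 7842 and 7238 FPKM at ZT14 against 9237 and 8969.7 FPKM at ZT2, and neuron sums were 1312 and 1738 FPKM against 1418 and 1621 FPKM. Their part in the results above was not tested. moody, a receptor of the glial blood-brain barrier, fell by 0.62 (adjusted p = 0.0341), called only without one of the vriΔ679 ZT14 libraries.

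**Figure D4:**
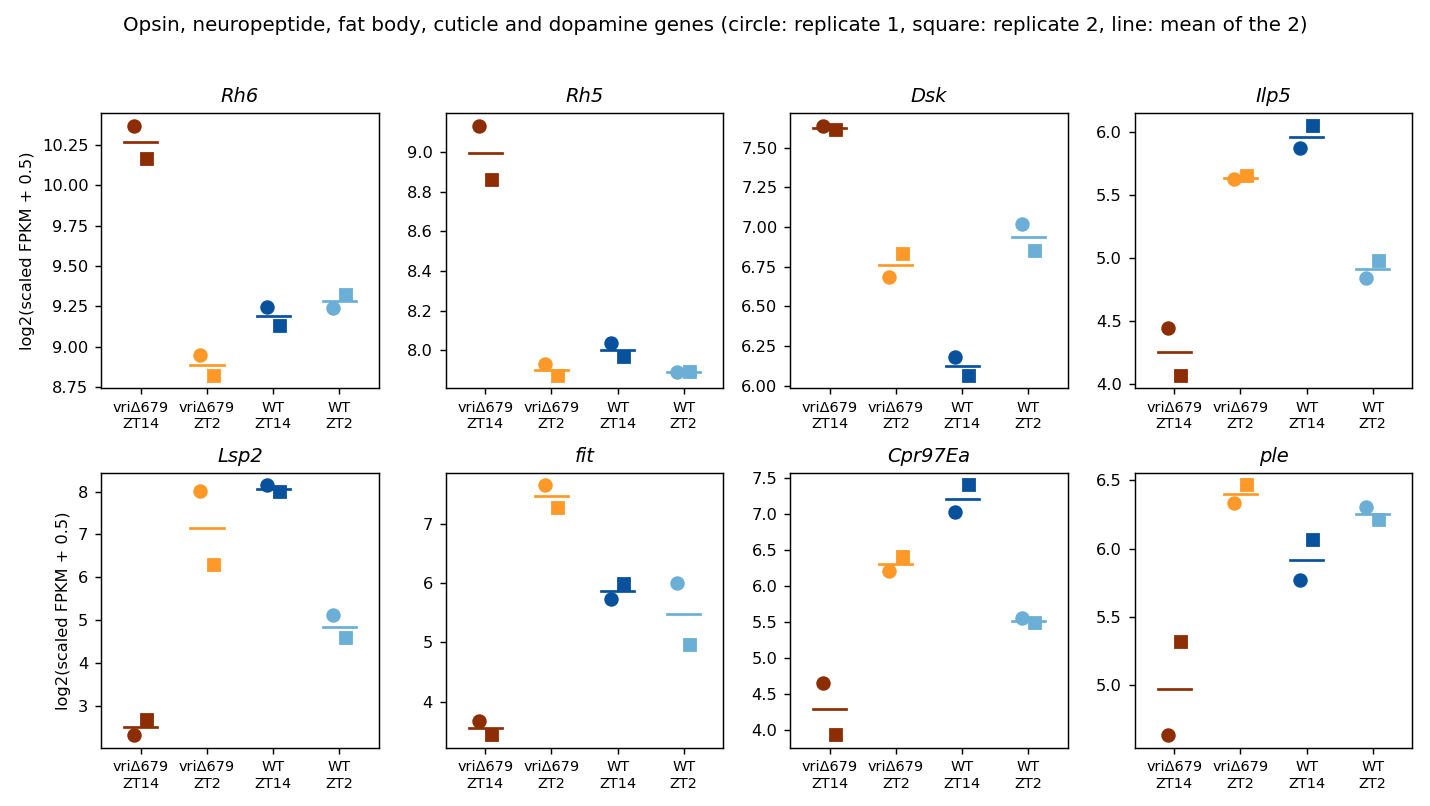
Log2(scaled FPKM + 0.5) of 8 opsin, neuropeptide, fat body, cuticle and dopamine genes (y axes, each with its own range) in the 4 groups (x axes), with 1 point for each library and a line at the mean of 2. Rh6, Rh5 and Dsk stand higher in both vriΔ679 ZT14 libraries than in both vriΔ679 ZT2 libraries, and Ilp5, Lsp2, fit, Cpr97Ea and ple stand lower.

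Among 11 genes of monoamine metabolism, 3 fell and none rose, against 6.38 % lower and 3.59 % higher among all genes tested. None of the 11 was called with group-specific weights. ple, the tyrosine hydroxylase that makes the dopamine precursor (3L 6713356–6719525), had 24.3 and 39.3 FPKM at ZT14 against 80.3 and 87.8 FPKM at ZT2, and fell by 1.43 (SE 0.23, adjusted p = 0.0141). t, the hydrolase Tan that frees dopamine and histamine from their beta-alanine conjugates (X 9217655–9223257), had 90.8 and 125 FPKM against 289 and 259 FPKM, and fell by 1.36 (SE 0.18, adjusted p = 0.00794). In each gene both ZT14 libraries were below both ZT2 libraries, and replicate 1 was the lower of the 2. Dat, the dopamine N-acetyltransferase (2R 24139563–24157762), had 111 and 91.4 FPKM against 208 and 174 FPKM, and fell by 0.91 (SE 0.16, adjusted p = 0.0178). The calls of ple and Dat were lost without vriΔ679 ZT2 replicate 1 or replicate 2 (adjusted p = 0.0573 to 0.103) and that of t without replicate 1 (adjusted p = 0.053). Exons of Dat overlap DnaJ-60, which rose.

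Activity-regulated transcription factors are switched on in active neurons. Of 8 tested, 2 fell: Hr38 stood at 1.05 and 1.83 FPKM at ZT14 against 3.22 and 4.15 FPKM at ZT2, and sr at 1.70 and 2.78 FPKM against 4.87 and 4.81 FPKM. The difference was −1.13 for Hr38 (adjusted p = 0.0235), and that of sr was −0.99 (adjusted p = 0.0229), calls that held only without one of the vriΔ679 ZT14 libraries. homer, a scaffold of the postsynapse linked to sleep, had 22.1 and 34.4 FPKM against 62.0 and 67.6 FPKM and fell by 1.22 (adjusted p = 0.0234), lost without vriΔ679 ZT2 replicate 1 or replicate 2 (adjusted p = 0.0955 to 0.123). Eip71CD, an ecdysone-induced methionine sulfoxide reductase gene (3L 15511052–15513202), had 138 and 123 FPKM against 61.9 and 54.1 FPKM. It rose by 1.16 (SE 0.14, adjusted p = 0.00574), called whichever library was left out.

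Several large complexes looked different in the 2 ZT14 libraries. Of 79 cytosolic ribosomal protein genes none was called, although the median was 0.45. The median was 0.78 without the library labelled replicate 2 and 0.10 without replicate 1. RpS2, a protein of the small subunit (2L 9896265–9897552), stood at 1358 and 974 FPKM at ZT14 against 778 and 657 FPKM at ZT2 (0.69, SE 0.20, adjusted p = 0.0725). These genes are short, and transcript length moved with the difference between the 2 libraries. Its part was not tested.

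The mitochondrial ribosome and the respiratory chain had the same pattern. Of 73 mitochondrial ribosomal protein genes 4 rose (median 0.44), against 3.59 % higher among all genes tested, and none rose with group-specific weights. The median was 0.16 without replicate 1 and 0.72 without the library labelled replicate 2. The number that rose was 13 with equal totals and 14 with quantile normalization. mRpL43 (2R 23698105–23699014) had 42.1 and 32.5 FPKM against 22.0 and 19.8 FPKM and rose by 0.81 (adjusted p = 0.0311), a call that held in 1 of the 8 fits without 1 library, that without the library labelled replicate 2. Of 60 respiratory chain genes none rose and 1 fell, and of 44 translation factors none was called. Without the library labelled replicate 2 the medians of these 2 lists were 0.49 and 0.38. Without replicate 1 they were −0.08 and 0.02.

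Of 32 proteasome genes 4 fell and none rose, with a median of −0.42, against 6.38 % lower among all genes tested. The number that fell was 9 with equal totals, 7 without rescaling and 8 with quantile normalization, but 0 with group-specific weights and 0 with the 4 mutant libraries alone. Rpn6, a lid subunit (2R 14750166–14752910), had 61.2 and 54.5 FPKM at ZT14 against 101 and 116 FPKM at ZT2, and in wild type 144 and 201 FPKM against 103 and 100 FPKM. It fell by 0.90 (SE 0.18, adjusted p = 0.0261), with a genotype by time difference of −1.64 (SE 0.25, adjusted p = 0.0122; up to 0.0626 without 1 library). Rpt3, an ATPase of the base (X 11125101–11126785), had 55.2 and 49.3 FPKM at ZT14 against 87.8 and 97.9 FPKM at ZT2 and fell by 0.82 (SE 0.17, adjusted p = 0.0295). Both falls were lost without any vriΔ679 or wild-type ZT2 library (adjusted p = 0.0603 to 0.154). Among 19 heat-shock genes 1 rose and 2 fell, against 3.59 % higher and 6.38 % lower among all genes tested. Hsp22, a mitochondrial chaperone (3L 9372931–9374964), had 32.3 and 21.9 FPKM at ZT14 against 8.005 and 7.66 FPKM at ZT2 and rose by 1.70 (SE 0.25, adjusted p = 0.0103). That call was lost without either vriΔ679 ZT2 library (adjusted p = 0.0559 and 0.0649).

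Antimicrobial peptide genes, which the immune response induces, varied widely between libraries of a group. None of 13 was called. Dpt, a diptericin (2R 18865765–18866260), stood at 68.0 and 4.52 FPKM at ZT14 and at 4.00 and 324 FPKM at ZT2. Dro, drosocin (2R 14745961–14746714), stood at 111 and 6.09 FPKM at ZT14 and at 25.2 and 271 FPKM at ZT2. The times overlapped in both genes, and in each vriΔ679 ZT2 replicate 2 was the highest of the 4 libraries. Other genes set the ZT14 libraries apart. Spn27A, a serpin of the melanization cascade (2L 6671065–6673347), had 78.2 and 2.69 FPKM at ZT14, against 45.3 and 49.4 FPKM at ZT2. brp, the Bruchpilot scaffold of synaptic active zones (2R 9503765–9541565), had 2.69 and 21.02 FPKM at ZT14, against 25.8 and 24.4 FPKM at ZT2. Galphao, a G protein subunit of neurons (2R 10437985–10465701), had 10.3 and 68.6 FPKM at ZT14, against 69.2 and 75.0 FPKM at ZT2. For brp and Galphao it was replicate 1 that stood alone. The overlapping genes Pif1B and Pif1A (3R 8774286–8801176) had 89.0 and 0.0 FPKM and 1.93 and 111 FPKM at ZT14, and their shared exons mean that reads could be assigned to either.

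**Figure D5:**
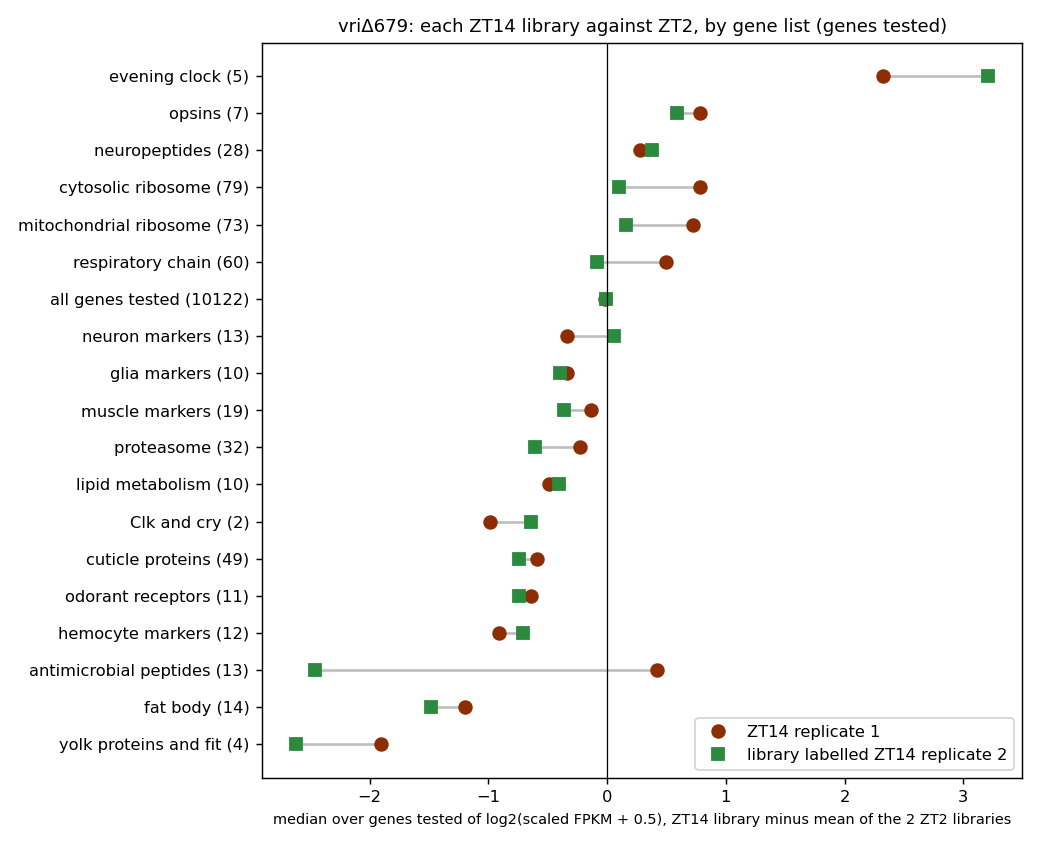
Median, over the genes tested in each list (number in brackets), of log2(scaled FPKM + 0.5) in 1 vriΔ679 ZT14 library minus the mean of the 2 vriΔ679 ZT2 libraries (x axis), with a circle for replicate 1 and a square for the library labelled replicate 2. The points lie close for cuticle (−0.59 and −0.74) and fat body (−1.20 and −1.48), and apart for cytosolic ribosomal proteins (0.78 and 0.10) and antimicrobial peptides (0.42 and −2.46).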

How the data were processed

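RNA from heads was sequenced as poly(A) libraries, 4 a run, with single-end reads of 75 nt and a stranded kit, per the labels' protocols. Reads were aligned with STAR 2.6.1d and quantified per transcript with StringTie on the dm6 build, per the submitters' processing notes; the strand setting of the counting is not given in the sources used here. The authors deposited FPKM for each of 35411 transcripts and the mean read coverage (a signal) of each, per the file headers. FPKM were summed over transcripts of the same gene name, giving 16727 genes, and libraries were scaled by median-of-ratios factors from 12078 genes. Mapped reads were computed from the ratio of coverage to FPKM, and reads on listed transcripts from coverage, transcript length and read length.

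Genes at a deposited FPKM of at least 1 in 2 libraries were tested with limma 3.58.1 in R 4.3.3 (statmod 1.5.0) on log2(scaled FPKM + 0.5), in one model of the 4 groups with trended, robust empirical Bayes and Benjamini-Hochberg adjustment. Because FPKM are not counts, no count model was used. At this depth 3 reads on a transcript of 3 kb equal 0.0153 to 0.0203 FPKM, counting error only. On simulated data for the vriΔ679 comparison with 10122 genes, 50 of 100 genes changed 2-fold and 92 of 100 changed 4-fold were recovered, with 3 false calls among 145. The simulation gave the 4 groups the same spread, whereas the real vriΔ679 ZT14 libraries varied more than the others. These rates therefore do not carry over to the calls reported here. The main fit did not pair samples by replicate number. Correlations of deviations between groups ran from −0.14 to 0.27, the highest between vriΔ679 ZT2 and wild-type ZT2. These values alone cannot decide whether replicate numbers pair the samples. Alternatives were other scalings, filters, pseudocounts, weights, the 4 mutant libraries alone and leaving out each library. Genes were named by a rule: 11 clock genes, the 12 largest rises and 12 largest falls called without overlap at 5 FPKM or more, up to 4 called members of each list by smallest p (3 where none was called), 8 genes each way farthest apart between the ZT14 libraries, and 5 each way with the smallest genotype by time p. Not all of them are described, and later additions are named as such. Members and lists were chosen with earlier results of these data known. Gene coordinates are those of the transcripts on dm6. Promoter sequence was not analysed here.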

Additional observations from a re-analysis of the deposited data

Results flagged for a closer look

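The difference between vriΔ679 and wild type in the ZT14 minus ZT2 change was tested in the limma model of all 4 groups, and the genes below passed at an adjusted p under 0.05. Of the named genes called in the mutant, 52 also passed this test, 30 of them whichever library was left out. All values are genotype by time differences on the log2 scale, vriΔ679 minus wild type.

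Genes whose ZT14 minus ZT2 difference was higher in vriΔ679 included clock and neuronal genes. The values were 1.67 for per, 1.49 for Pdf, 1.68 for Dsk, 1.97 for Orcokinin (CG13565), 1.31 for Hug, 1.21 for NPF and 1.85 for Trissin. Among eye genes they were 1.47 for Rh6, 0.98 for Rh5, 1.09 for Rh4 and 1.52 for Arr1. CRG had 3.05, DnaJ-60 3.09, CG13931 3.33 and Sirt4 2.89. Hsp22 had 1.67, Eip71CD 1.56, AkhR 0.96 and RpS2 1.25, the last of which was not called in the mutant itself.

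Genes whose difference was lower in vriΔ679 included those of the cuticle: −1.03 for Cpr66D, −3.71 for Cpr97Ea, −3.37 for Ccp84Aa, −3.48 for Cpr62Bc, −3.51 for Cpr76Bd, −3.31 for kkv, −2.46 for verm and −3.42 for obst-A. In the fat body and its metabolism the values were −7.88 for Lsp2, −4.29 for fit, −4.61 for Fbp1, −5.60 for Fbp2, −1.34 for Pepck and −0.89 for ATPCL. Olfactory genes had −3.26 for a5, −2.33 for Obp69a, −2.63 for Obp59a, −3.41 for Obp28a, −2.27 for Orco and −1.93 for Or59b. Obp69a and Obp59a were lower at ZT14 in wild type too, where their low levels and the pseudocount limit the size of a fall. Or59b was tested only because of its level at vriΔ679 ZT2. Os-C, Obp83a, Obp83b and Obp19a, which also fell in the mutant, did not pass. Enzymes had −4.18 for Jhedup, −3.59 for GstE4, −1.39 for GstD8, −3.27 for CG11391 and −1.36 for Dat. The insulin-like peptides had −1.96 for Ilp3 and −2.43 for Ilp5. The remaining values were −1.44 for Atx2, −2.77 for ninaD, −1.37 for vkg, −1.47 for Cg25C, −1.64 for Rpn6, −1.43 for Rpt3 and −3.21 for CG3777.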

How the results depend on the processing

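With 2 libraries a group the calls rest on few samples. Genes that rose and fell at vriΔ679 ZT14 numbered 25 and 62 with group-specific weights and 32 and 151 with the 4 mutant libraries alone; 699 rose with quantile normalization. Genotype by time calls numbered 537 with group-specific weights. Leaving out each library in turn gave 59 to 2212 genes that rose, 203 to 2400 that fell and 255 to 4197 genotype by time calls; the lone sample left in a group is assumed to vary like the other groups. The lowest count of each direction came without vriΔ679 ZT2 replicate 2, and the highest without the library labelled vriΔ679 ZT14 replicate 2. The 5065-base Pdp1 transcript turned round: its difference was 1.15 without vriΔ679 ZT14 replicate 1 and −2.55 without the library labelled replicate 2. With the replicate number as a block, 343 genes rose and 690 fell, with 860 genotype by time calls. Whether the replicate numbers pair the samples is not known. Equal totals moved the median genotype by time difference over all genes from −0.01 to −0.13. Another pseudocount, the filter at 5 FPKM and the simpler Bayes step changed the side of the threshold for none of the results recomputed under them. For FPKM near 0 the pseudocount compresses differences.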

Other observations

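Some gene groups at vriΔ679 ZT14 relative to ZT2 have not been described above. Of 396 noncoding RNA genes tested, 23 rose and 24 fell, against 3.59 % and 6.38 % of all genes tested. Of 22 V-ATPase subunit genes, 1 rose, by 1.28. None of 11 eye pigment genes was called in the mutant, where 4 rose and 1 fell in wild type, and 3 were called lower for the genotype by time difference. None of 9 chaperones of the endoplasmic reticulum and none of 5 sugar digestion genes was called. Turandot stress genes, of which 4 were tested, summed to 99.96 and 58.3 FPKM at ZT14 against 119 and 299 FPKM at ZT2, with none called.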
